A study of Gallus gallus with 6 samples.

Results

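HINTW (gene ID 395423) and ATP5F1AW (gene ID 431564) are genes of the chicken W chromosome. Both were found by gene ID, and they are 2 of the 24098 genes with a value in every library. RefSeq assembly GRCg7b places 60 of the measured genes on W, and both genes are among them. RNA had been sequenced from whole Gallus gallus embryos at Hamburger-Hamilton stage 10, when the first somites have formed and the cranial neural crest is on the move. The 3 control libraries and the 3 libraries of embryos treated with zinc oxide (ZnO) nanoparticles are named by group and replicate number. The labels give no dose, route, length of exposure, strain or sex, and they do not say whether a library holds 1 embryo or a pool. Spread between libraries, on which all p-values rest, may accordingly be technical in part. Hours are given beside the stage, with 34 as the lower figure for every library. The upper figure is 39, 40 and 41 in control 1, 2 and 3. In ZnO 1, 2 and 3 it is 42, 43 and 44. This upper figure climbs in equal steps down the list of libraries, across both groups, while the stage stays the same. It may therefore not be a measured age, and no difference in age between the groups is read from it.

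Birds have a ZZ male and a ZW female. The W chromosome is passed only from mother to daughter, so transcripts of genes found on W alone come from female cells. Most surviving W genes have a partner on Z, from which they diverged after the sex chromosomes stopped recombining. Z genes are only partly dosage compensated in birds, so males tend to hold somewhat more Z transcript than females. In a library made from a whole embryo or several embryos, a W transcript level therefore carries the female part of the material together with the transcript amount per cell, and these bulk values cannot tell fewer female cells from less RNA per cell.

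The depth behind the values was 18208501 to 19843561 reads per library, and each library had 18924 to 19347 genes above 0. Markers of the labelled tissue were present in all libraries, among them PAX6 of the neural plate (13.9 to 29.1 FPKM), FOXD3 of the crest (26.5 to 49.0 FPKM), TCF15 of the somites (25.8 to 58.9 FPKM) and NKX2-5 of the heart (32.4 to 52.4 FPKM). FPKM is the read number per length of the gene model and per depth. ZnO 1 stood apart from the other treated libraries across all genes, with a correlation of 0.945 to ZnO 3 and 0.959 to ZnO 2. Its FPKM summed to 480047, against 531480 to 559992 in the other 5 libraries.

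HINTW encodes a W-linked relative of the histidine triad protein HINT1 that is known to lack the catalytic histidine triad. It is known to occur in many copies on W, and the sources used here do not give how reads shared by copies were counted. HINTW was at 532, 244 and 813 FPKM in control 1, 2 and 3, and at 434, 717 and 558 FPKM in ZnO 1, 2 and 3. Control 3 was highest and control 2 lowest, so the controls spanned the treated libraries on both sides and the groups overlapped. The order from high to low was control 3, ZnO 2, ZnO 3, control 1, ZnO 1 and control 2. These values rest on 5402 to 19624 reads of a 1216 bp gene model. Reads, gene lengths and depths throughout were solved from the steps of the FPKM values and were not given with them. The exact Poisson 95% intervals, which cover counting error only, did not overlap between any 2 libraries: that of control 1 was 523 to 542 FPKM and that of the next library, ZnO 3, was 548 to 568 FPKM.

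ATP5F1AW encodes a W copy of the alpha subunit of the F1 part of mitochondrial ATP synthase, the enzyme that makes ATP from the proton gradient. It was at 41.8, 21.2 and 59.1 FPKM in control 1, 2 and 3, and at 37.0, 66.6 and 54.2 FPKM in ZnO 1, 2 and 3, with 681 to 2227 reads of a 1765 bp gene model. ZnO 2 was highest and control 2 lowest, and the groups again overlapped. From high to low the order was ZnO 2, control 3, ZnO 3, control 1, ZnO 1 and control 2, so only the first 2 places differed from the order of HINTW. The intervals of control 3 (56.6 to 61.7 FPKM) and ZnO 3 (51.7 to 56.8 FPKM) overlapped, and those of all other neighbours in the order did not.

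**Figure D1:**
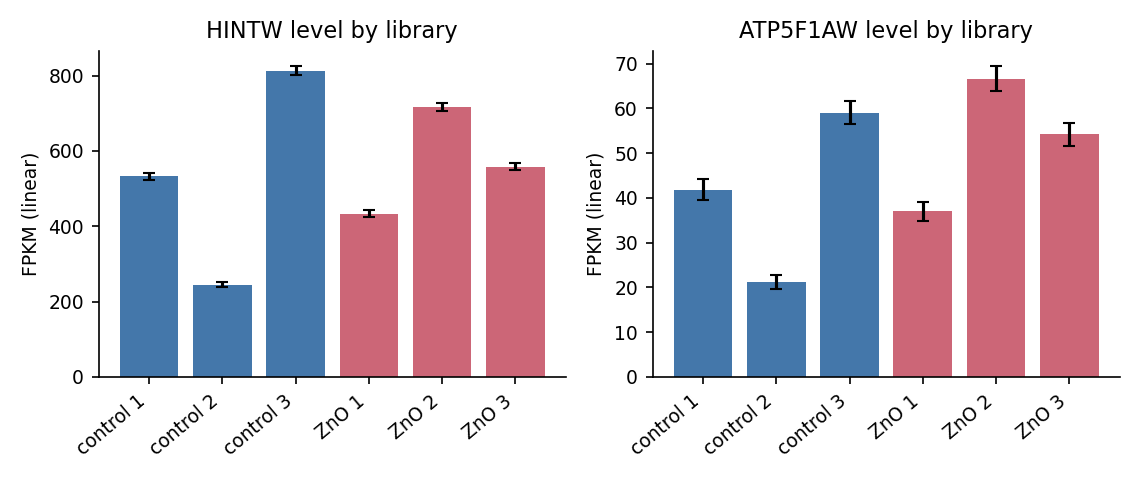
FPKM of HINTW and ATP5F1AW in each library (bars, linear axes that start at 0), with exact Poisson 95% intervals from reads (error bars, counting error only), controls in blue and treated libraries in red. Both genes are lowest in control 2, at 244 and 21.2 FPKM, and the groups overlap.

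Transcripts of both genes were present in all 6 libraries. The highest library exceeded the lowest 3.33-fold for HINTW and 3.14-fold for ATP5F1AW. Within the controls the range was 3.33-fold and 2.79-fold, and within the treated libraries 1.65-fold and 1.80-fold. The SD of log2(FPKM + 1) over the 6 libraries was 0.62 for HINTW and 0.58 for ATP5F1AW, against a median of 0.24 over the 13311 genes that averaged 1 FPKM or more. These SDs were larger than those of 96.9% and 96.2% of the genes. HINTW was among the more abundant transcripts, with the 130th highest mean.

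The question whether the treatment moved the W genes was addressed in a fit of all genes with limma on log2(FPKM + 1). HINTW averaged 529.8 ± 285 FPKM over controls and 569.7 ± 142 FPKM over ZnO libraries (SD, n = 3). The log2 fold change was 0.24 ± 0.42 SE, and its 95% interval ran from -0.73 to 1.20. Its adjusted p in limma was 0.976, and an exact two-sided permutation test gave p = 0.8, where 0.1 is the smallest that 3 against 3 libraries allow. ATP5F1AW averaged 40.7 ± 19.0 and 52.6 ± 14.9 FPKM (SD, n = 3), and its log2 fold change of 0.44 ± 0.37 SE had a 95% interval from -0.41 to 1.29 (limma adjusted p = 0.962, exact permutation p = 0.6). Neither gene passed, as 0.0% of all 13311 genes did in this comparison (754 genes, or 5.66%, had an unadjusted p under 0.05, and limma-voom on recovered reads called 0 genes, with 723 genes at an unadjusted p under 0.05). Without control 2 the value of HINTW was -0.24 and that of ATP5F1AW 0.04, so control 2 sets the direction of the first and nearly all of the second. Without control 3 they were 0.63 and 0.76, without ZnO 1 0.42 and 0.67, and without ZnO 2 0.06 and 0.25.

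Library by library, HINTW and ATP5F1AW moved together. Pearson's r of their log2(FPKM + 1) over the 6 libraries was 0.968 (exact permutation p = 0.00417, adjusted p = 0.0167 over a family of 4 relations), and Spearman's rho was 0.943 (exact p = 0.0167, adjusted p = 0.0667). Without control 2 and control 3, the libraries farthest from the median of HINTW, r was 0.949 over the 4 that are left. Without control 2 alone r was 0.885. The adjusted exact p was 0.0667, 0.133, 0.05 and 0.0667 without control 1, control 2, ZnO 1 and ZnO 3, where 5 libraries allow fewer permutations, and r without any 1 library was 0.885 to 0.983. Both genes share libraries and depth.

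The ratio of the pair was steadier than either gene. HINTW exceeded ATP5F1AW in FPKM 12.7-fold, 11.5-fold and 13.8-fold in control 1, 2 and 3, and 11.7-fold, 10.8-fold and 10.3-fold in ZnO 1, 2 and 3. The highest ratio exceeded the lowest 1.34-fold, against more than 3-fold for each gene. Control 2, with the lowest level of both, had a ratio between those of ZnO 1 and ZnO 2. The mean ratio was 12.7 ± 1.13 in controls and 10.9 ± 0.728 in treated libraries (SD, n = 3), and the groups overlapped (exact permutation p = 0.2). The ratios of control 3 and ZnO 3 differed by more than counting error, with exact 95% intervals of 13.2 to 14.4 and 9.79 to 10.8. This ratio was examined after its values had been seen.

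Of the other 58 genes that the table places on W, 33 had a mean of at least 1 FPKM and were tested, while 25 of the 60 were below that level, 8 of them at 0 in every library. The mean log2(FPKM + 1) of HINTW and ATP5F1AW, called the W level here, served to compare them. It was 7.24, 6.20 and 7.79 in control 1, 2 and 3, and 7.01, 7.78 and 7.46 in ZnO 1, 2 and 3. Of the 33 genes, 28 had a positive correlation with the W level over the 6 libraries, against 6962 of all 13309 genes other than the pair. The median r of the 33 was 0.80, against 0.07 over all 13309. An r of 0.9 or more was found for 12 of the 33, against 1.49% of all genes. The 12 include the non-coding gene LOC107055426 (r = 0.919), with 0 to 7 reads per library and an r of 0.70 without control 2. Control 2 was the lowest library for 25 of the 33, against 16.8% of all genes. Without control 2, 8 of the 33 reached an r of 0.9, against 3.85% of all genes, and the median r was 0.55. These values describe the list and carry no test.

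The closest follower was LOC430766, at 16.8, 8.35 and 24.0 FPKM in control libraries and 14.03, 23.0 and 19.9 FPKM in treated libraries (r = 0.998). Its order of libraries was that of HINTW. HNRNPKL, a W copy of the RNA-binding protein gene HNRNPK, was at 39.7, 18.6 and 61.0 FPKM in control libraries and 37.0, 50.9 and 44.9 FPKM in treated libraries (r = 0.983). LOC107049046 was at 62.9, 29.0 and 92.2 FPKM in control libraries and 45.8, 79.3 and 77.6 FPKM in treated libraries (r = 0.980). In all of these control 2 was lowest and control 3 highest. UBE2R2L, a relative of a ubiquitin-conjugating enzyme gene (r = 0.967), SPIN1L, a W copy of the histone reader gene SPIN1 (r = 0.981), and LOC427025, listed with the older symbol SCC2W (r = 0.983), were less abundant, between 0.786 and 7.62 FPKM in every library.

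Some genes placed on W had another pattern. NEDD4L, whose family attaches ubiquitin to membrane proteins, was at 23.3, 21.9 and 16.7 FPKM in control libraries and 19.4, 17.2 and 16.6 FPKM in treated libraries, so control 2 was second highest. LOC107055485 was at 17.4 FPKM in control 2 and at 1.45 to 3.82 FPKM in the other libraries. Its r with the W level was -0.67 over the 6 libraries and 0.82 without control 2, so the opposite direction rests on control 2. LOC100857299 was at 9.26, 9.47 and 12.4 FPKM in control libraries and 18.3, 31.9 and 20.3 FPKM in treated libraries (limma adjusted p = 0.746). The retroviral gene ENS-1 was at 4.18, 2.93 and 5.25 FPKM in control libraries and 8.14, 9.41 and 6.09 FPKM in treated libraries (limma adjusted p = 0.801). With LOC100859602 these made 3 of 33 genes whose treated libraries all lay above the controls, against 5.6% of all genes, and 0 of 33 lay below, against 5.89%. None of the 33 passed the limma test between groups, and their median log2 fold change was 0.23, against -0.03 over all genes.

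**Figure D2:**
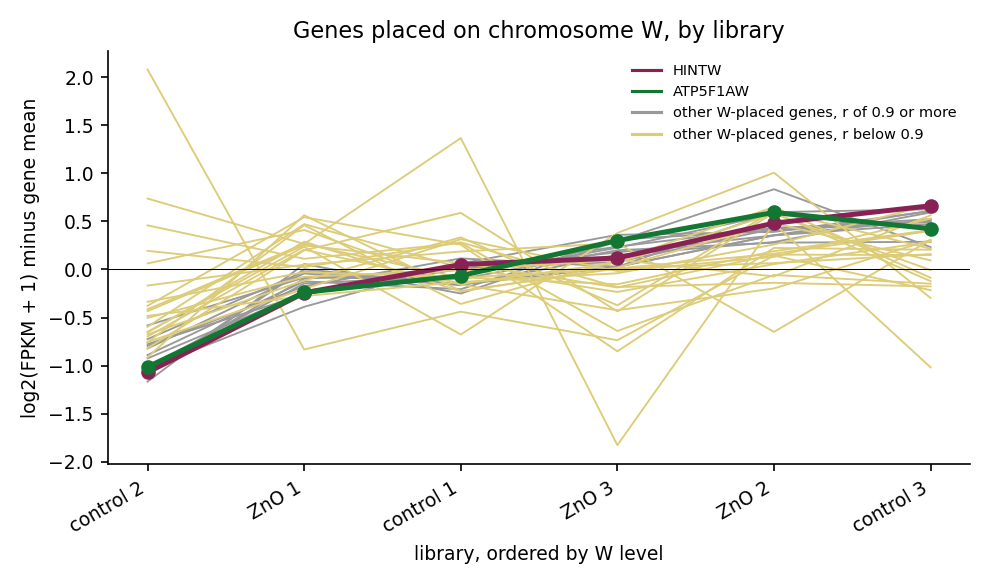
Log2(FPKM + 1) minus the mean of the gene over the 6 libraries, for HINTW, ATP5F1AW and the 33 other tested genes placed on W (1 line each), with libraries in order of the W level. The 12 genes with r of 0.9 or more (grey) follow the pair from control 2 up to control 3, and the other genes (yellow) include LOC107055485, the line that is highest in control 2.

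A second limma fit asked which other genes followed the W level once the group had been taken into account. Its slope is the change in log2(FPKM + 1) of a gene per unit of the W level, so that 1 stands for a change in step with the pair. No gene passed an adjusted p of 0.05, and the lowest adjusted p was 0.179, so 0.0% of 13309 genes were called. An unadjusted p under 0.05 with a positive slope was found for 19 of the 33 genes placed on W, against 6.57% of all genes, and with a negative slope for 0 of 33, against 10.3%. The slopes of LOC430766 (0.89 ± 0.12 SE, adjusted p = 0.221), LOC107049046 (1.04 ± 0.14 SE, adjusted p = 0.221) and HNRNPKL (0.96 ± 0.14 SE, adjusted p = 0.240) were among the 10 with the lowest p. SLC30A2, a zinc transporter gene on chromosome 23, had a slope of -1.11 ± 0.14 SE (adjusted p = 0.221). It was at 17.8, 32.0 and 8.69 FPKM in control libraries and 46.0, 22.9 and 28.9 FPKM in treated libraries. Without the group taken into account, its r with the W level over the 6 libraries was only -0.58. Of all genes, 2243 had an unadjusted p under 0.05 (16.9%). The count was 669 without control 3, 1088 without ZnO 2 and 1347 without control 1. It was 2137 without control 2, 2156 without ZnO 1 and 3277 without ZnO 3.

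Among genes that averaged 5 FPKM or more, 3 of the 10 with the highest r with the W level were on W, where 10 of 9570 genes (0.104%) are placed there. The other 7 of the 10 were on numbered chromosomes. TANK, a regulator of NF-kappaB signalling (r = 0.990), PICK1, a PDZ scaffold (r = 0.985), CTBP2, a transcriptional corepressor (r = 0.984), and the kinase gene MAPK8 (r = 0.982) were among them. Their highest library exceeded the lowest only 1.28-fold to 1.78-fold, against 2.87-fold for LOC430766 and 3.28-fold for HNRNPKL. CCDC51, UBE2H and PPP2R3C completed the 10, with r of 0.976 to 0.982. Of the 10 with the lowest r, 2 were on Z, where 3.94% of these genes are placed: HAPLN1, which links hyaluronan to proteoglycans (r = -0.986), and the metalloprotease gene ADAMTS19 (r = -0.960). CTSZ, a lysosomal protease gene (r = -0.990), ANAPC5 of the anaphase promoting complex (r = -0.989), NRN1L, SLC2A10, SLC12A7, LOC112531637, SEC14L3 and NEIL1 were the others.

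**Figure D3:**
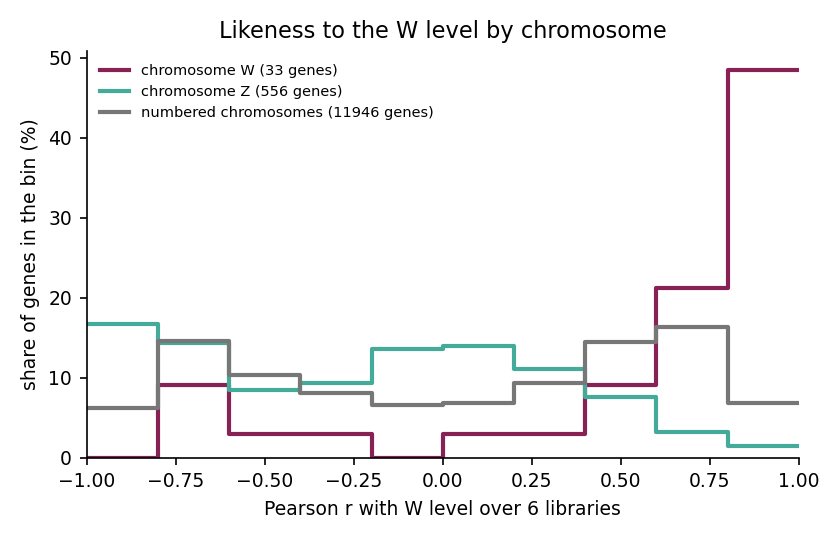
Share of tested genes (percent, vertical axis) by Pearson r with the W level over the 6 libraries (bins of width 0.2, horizontal axis), for 33 genes on W, 556 on Z and 11946 on numbered chromosomes. Genes on W lie mostly at high r (median 0.80), genes on numbered chromosomes spread over the whole range (median 0.12) and genes on Z lean to negative values (median -0.19).

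HINT1, a separate gene that is also placed on Z, was not used as the partner of HINTW. The partner was taken by the older names HINTZ and HINT1Z, which belong to the gene listed as HINT2 (gene ID 395424). It was at 141, 139.7 and 117 FPKM in control libraries and 83.2, 106 and 119.8 FPKM in treated libraries, with ZnO 1 lowest. HINTW made up 79.0%, 63.6% and 87.4% of the summed FPKM of the pair in control 1, 2 and 3, and 83.9%, 87.1% and 82.3% in ZnO 1, 2 and 3. HINTW thus had the higher FPKM in each library. Since HINTW is known to occur in many copies on W, its value may sum over copies and is not that of a single W copy. The share was 76.7 ± 12.1% in controls and 84.4 ± 2.43% in treated libraries (SD, n = 3, exact permutation p = 0.5). The scaling of a library cancels in these shares, while the level of the Z partner enters them. The share was lowest in control 2, and the cause of this was not tested. The pairs were chosen after values had been seen, and reads that W and Z copies share cannot be told apart.

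ATP5F1AZ, the Z copy of the alpha subunit gene, was at 283, 289.5 and 245 FPKM in control libraries and 192, 234 and 343 FPKM in treated libraries. Here the W copy was the minor one. ATP5F1AW made up 12.9%, 6.82% and 19.4% of the pair in control 1, 2 and 3, and 16.2%, 22.2% and 13.6% in ZnO 1, 2 and 3 (13.04 ± 6.30% and 17.3 ± 4.38%, SD, n = 3, exact permutation p = 0.4). The exact 95% interval of control 2 was 6.33 to 7.33% and that of the next library, control 1, was 12.2 to 13.5%. ZnO 3 moved from the third place by FPKM to the fourth by share, beside its high level of ATP5F1AZ.

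In 6 further pairs the W share was also lowest in control 2. It was 10.1% in control 2 and 19.0% to 27.1% in the other libraries for HNRNPKL with HNRNPK, and 2.88% against 6.90% to 10.6% for SPIN1L with SPIN1. It was 6.51% against 11.1% to 21.6% for UBE2R2L with UBE2R2, and 12.4% against 21.2% to 48.7% for SMAD7B with SMAD7, an inhibitor of TGF-beta signalling. For the W gene listed with the older name CHD1W (LOC374195) with the chromatin remodeller gene CHD1 it was 11.8% against 17.9% to 24.6%, and for UBAP2L2 with UBAP2 it was 16.9% against 22.6% to 35.1%. The highest share fell in control 3, ZnO 1 or ZnO 2. The groups overlapped in all 8 pairs (exact permutation p from 0.2 to 0.8).

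**Figure D4:**
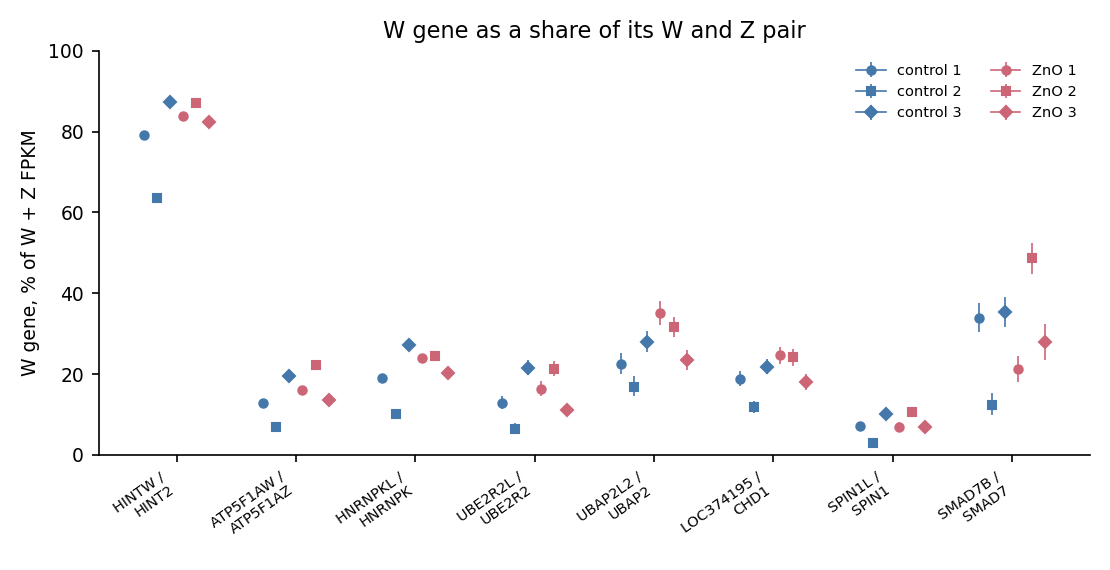
FPKM of the W gene as a percentage of the summed FPKM of the W and Z genes, for 8 pairs (W gene over Z gene on the horizontal axis), with a point for each library and exact binomial 95% intervals from reads (counting error only). Control 2 (blue square) is lowest in each pair, at 63.6% for HINTW and 6.82% for ATP5F1AW.

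A list of Z partner genes gave 23 genes placed on Z, of which 22 were tested and 0 passed in either fit. Of the 22, 10 had a positive and 12 a negative r with the W level, and the median r was -0.10. ZnO 1 was the lowest library for 14 of the 22, against 30.7% of all genes. BTF3, which encodes a subunit of the complex that meets nascent polypeptides at the ribosome, was at 166, 161 and 175 FPKM in control libraries and 99.2, 154 and 175 FPKM in treated libraries. CHD1 was at 13.2, 14.1 and 11.96 FPKM in control libraries and 11.2, 10.5 and 11.1 FPKM in treated libraries (limma adjusted p = 0.943). Its treated libraries all lay below the controls, as did those of HINT1 and MIER3. Over all genes, 5.89% did so. Of the 22, 18 had a lower mean log2 value in treated embryos, against 56.1% of all genes. SMAD7 had the strongest opposite slope of the list, -0.51 per unit of the W level (adjusted p = 0.291).

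Over all 556 tested genes placed on Z, a Z level was taken as the median deviation of log2(FPKM + 1) from the gene mean, less the same median on numbered chromosomes. It was 0.08, 0.16 and -0.04 in control 1, 2 and 3, and -0.14, -0.09 and 0.04 in ZnO 1, 2 and 3. Control 2, lowest for W, was highest for Z. ZnO 1, second lowest for W, was lowest for Z. The means were 0.07 ± 0.10 in controls and -0.06 ± 0.09 in treated libraries (SD, n = 3), a difference of -0.13 with overlapping groups (exact permutation p = 0.2). Of the 556 genes, 430 had a lower mean log2 value in treated embryos (77.3%, against 56.1% of all genes), and 0 passed. In all treated libraries, 71 of the 556 lay below the controls, against 5.89% of all genes. Above the controls lay 13 of the 556, against 5.6% of all genes.

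Pearson's r between the W level and the Z level was -0.589 over the 6 libraries (exact permutation p = 0.217, adjusted p = 0.289). Spearman's rho was -0.371 (exact p = 0.497, adjusted p = 0.658), and r without control 2 and control 3 was 0.0592. The r was 0.04 without control 2 and -0.914 without ZnO 1 (adjusted exact p = 0.05), so both libraries decide its size. Of the 556 genes, 348 had a negative r with the W level, against 6347 of all 13309 genes other than the pair. An r of -0.9 or less was found for 22 (3.96%, against 1.29% of all genes), and 85 had a negative slope at an unadjusted p under 0.05 (15.3%, against 10.3%). Genes from a list drawn up as Z genes lay on both sides: FST, the follistatin gene, was at 58.1, 91.9 and 44.8 FPKM in control libraries and 65.5, 38.2 and 28.7 FPKM in treated libraries (r = -0.831), while TPM2 of the tropomyosins was at 135 to 173 FPKM (r = 0.309). In that list 8 of 19 tested genes had a positive and 11 a negative r, and 1 of the 8, IREB2, is placed on chromosome 10 and not on Z.

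The spread of the libraries over all other genes was only partly like that of the W level. The first principal component was taken over 12720 tested genes not placed on W or Z, among them genes with no chromosome given. It held 51.5% of the variance. Control 2 was at 22.7 and ZnO 1 at 35.9, against 2.44 in control 1 and -28.2 to -15.7 in control 3, ZnO 2 and ZnO 3. The correlation of this component with the W level was -0.750 (exact permutation p = 0.0806, adjusted p = 0.161). Spearman's rho was -0.714 (exact p = 0.136, adjusted p = 0.272), and r was -0.874 to -0.712 without any 1 library on the same scores and -0.821 without control 2 and control 3. The second component held 20.4% and separated the groups, at -14.7 to -12.8 in controls and 6.58 to 19.1 in treated libraries. Its correlation with the W level was 0.197 (exact permutation p = 0.781, adjusted p = 0.781) and Spearman's rho was -0.257 (exact p = 0.658, adjusted p = 0.658). On the same scores r was -0.395 without control 2, 0.399 without ZnO 1 and 0.121 to 0.502 without any other 1 library, so its sign rests on control 2. It was -0.0865 without control 2 and control 3.

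Among pairs of libraries, control 2 and control 3 differed most in the W level, by 1.58 on the log2 scale, and their correlation across genes was 0.972. ZnO 1 and ZnO 3 were the least alike across genes (0.945) and differed by 0.45 in the W level. Control 3 and ZnO 2, from different groups, differed by 0.01 in the W level and were the most alike across genes (0.985). The SD of their log2 differences was 0.320, against 0.599 for ZnO 1 and ZnO 3. Control 1 and control 3 were nearly as alike (0.985, SD 0.322), yet differed by 0.55 in the W level. Control 1 and control 2 (0.984) differed by 1.04.

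**Figure D5:**
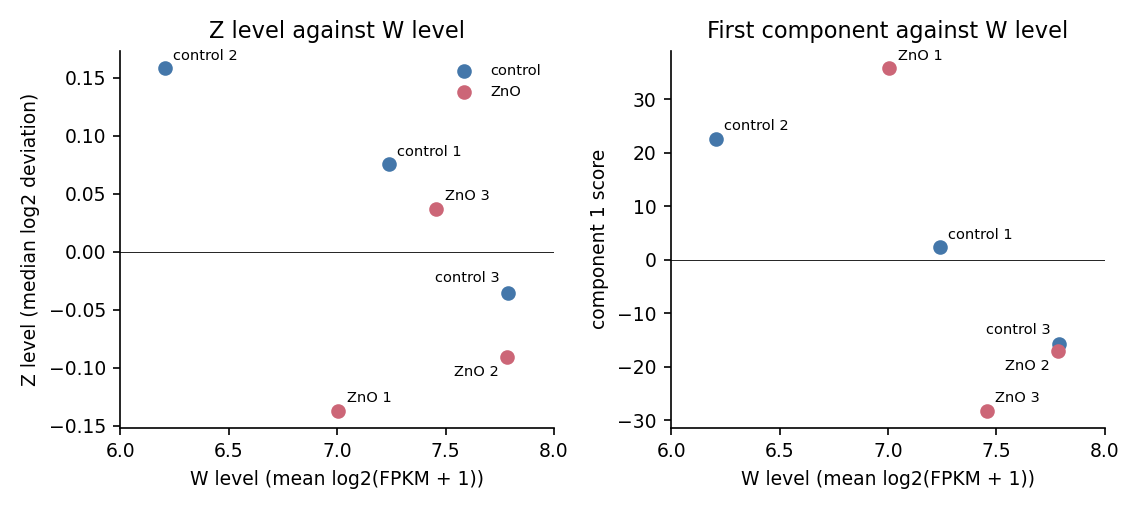
Z level (left, median log2 deviation) and score on the first principal component of genes not placed on W or Z (right). Both are shown against the W level (mean log2(FPKM + 1) of HINTW and ATP5F1AW), with 1 point per library. Control 2 has the lowest W level (6.20) and the highest Z level (0.16), while ZnO 1 has the lowest Z level (-0.14) and the highest score on the component (35.9).

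Relatives of the pair by family were compared in the same way. Of 7 tested genes of the histidine triad family, 4 had a positive and 3 a negative r with the W level (median 0.17), and 0 passed between groups. HINT1 is also placed on Z. Its level was 58.4, 68.1 and 58.6 FPKM in control libraries and 42.5, 56.7 and 47.6 FPKM in treated libraries, with control 2 highest. Of the F1 part of ATP synthase, the beta subunit gene, listed as ATP5B, was at 713, 727 and 803 FPKM in control libraries and 674, 816 and 867 FPKM in treated libraries (r = 0.601). ATP5C1, of the gamma subunit, was at 184, 158 and 186 FPKM in control libraries and 119.2, 166 and 195 FPKM in treated libraries (r = 0.426).

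Gonads have not yet formed at this stage. Of 13 tested genes of a sex determination list, 9 had a positive and 4 a negative r with the W level (median 0.16), and 0 passed between groups. DMRT1, the Z-linked gene needed for testis development in chicken, was at 1.53, 2.49 and 3.04 FPKM in control libraries and 1.18, 1.93 and 2.67 FPKM in treated libraries. Its level in control 2 was not the highest, unlike the Z level as a whole. CYP19A1, the aromatase gene, was at 0 FPKM in all libraries but ZnO 3 (0.0169 FPKM), and AMH was at 0.107 to 0.542 FPKM. FOXL2 was at 35.3 to 62.1 FPKM, SOX9 at 12.4 to 18.6 FPKM and WNT4 at 26.3 to 36.2 FPKM. The germ cell markers DDX4 and DAZL stayed below 0.534 FPKM in all libraries. Of 5 tested genes of the germ cell list, 2 had a positive and 3 a negative r (median -0.66). The negative ones were TDRD7 (r = -0.875), PIWIL1 (r = -0.816) and KIT (r = -0.656). Pou5f3, a pluripotency factor gene with a positive r (0.662), was at 38.3, 28.7 and 45.9 FPKM in control libraries. In treated libraries it was at 26.6, 62.8 and 91.3 FPKM (limma adjusted p = 0.962).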

How the data were processed

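Each deposited file gives FPKM per gene for 1 library, judged from the steps of its values. The labels' protocols give Trizol extraction, 1 µg of RNA, an Illumina TruSeq kit and paired reads of 125 or 150 bp. HTSeq 0.6.1, TopHat2 2.0.12 and Bowtie2 2.2.3 appear in the submitters' processing notes. The notes name mm10, a mouse build, so no coordinates are given. Whether counting used strand is not stated there. Gene IDs were matched to the RefSeq table of GRCg7b (19704 of 24098), which gave symbols and chromosomes.

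FPKM values were whole multiples of a step, and solving the steps gave depths and whole reads (within 0.005) for all 13311 tested genes. The length of a gene was the shortest that gave whole reads in every library. With the depth of 1 library set wrong, 79 of 500 genes tried still gave whole reads. A solution for a single gene thus does not show that its reads are right. The recovered reads made up 98.8% to 99.0% of each depth. Genes averaging 1 FPKM or more entered limma 3.58.1 in R 4.3.3 (mean-variance trend, log2(FPKM + 1), two-sided, Benjamini-Hochberg, threshold 0.05), without covariates or with the W level and the group. limma-voom on recovered reads, an alternative chosen after seeing the data, used total reads as library size. Adding 1 FPKM understates changes of low genes. Fits were also run on simulated reads, with genes drawn independently and the same excess spread for every gene. The simulation held no unplanned shift shared by a whole library, so it does not cover such shifts in these data.

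The members and lists were chosen with earlier results of these data known. The genes named were both members, tested genes on W, Z partners, the 10 highest and 10 lowest r at a mean of at least 5 FPKM, the 10 lowest p with the W level, and abundant list members. Of these, several are given by count or range only. The 8 pairs and the genes with another pattern were chosen after values were seen. List entries matched by symbol or synonym in 6 of 24, 27 of 30, 18 of 20, 10 of 10, 7 of 7, 3 of 8 and 20 of 20 cases (W copies, Z partners, sex determination, germ cells, histidine triad family, F1 subunits and Z genes). Sequences were not used here.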

Additional observations from a re-analysis of the deposited data

How the results depend on the processing

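Of 116 alternative values, 103 kept their direction and their side of the threshold, or, for counts, stayed within 1.5 times. The 9 for the Z level between groups could not pass, since 0.1 is the smallest exact p that 3 against 3 libraries allow. By Pearson's r, only the relation of HINTW with ATP5F1AW had passed the threshold. It stayed under the threshold in 4 alternatives and not in 5. Pseudocount, filter, scaling, limma-voom changed no call between groups. The planned quasi-likelihood count test and TMM version of limma-voom on recovered reads were left out after they had been run, and their values are not given. The count of genes called between groups was 0 to 4 without 1 library (4 without ZnO 1), with 389 to 1944 genes at an unadjusted p under 0.05, and 0 with the W level as a covariate. The log2 fold change of HINTW was -0.24 to 0.63 without 1 library, reversed without control 2 (-0.24), and that of ATP5F1AW was 0.04 to 0.76. The count called with the W level was 0 throughout, with 669 to 3277 genes at an unadjusted p under 0.05 without 1 library, 1317 with TPM-like scaling, 1611 with HINTW alone and 3087 with ATP5F1AW alone. The r of HINTW with ATP5F1AW was 0.885 to 0.983 without 1 library, and 0.949 without the 2 farthest libraries (adjusted exact p = 0.167, where 4 libraries allow few permutations). The r of the W level with the Z level was -0.914 to 0.04 without 1 library, turning without control 2 (0.0375), and 0.0591 without control 2 and control 3. With the second component recomputed without 1 library it was -0.534 to 0.538, with opposite signs without control 2 (-0.185) and ZnO 1 (-0.534). Without ZnO 1 the recomputed scores correlated at only 0.519 with those of the 6 libraries, so the -0.534 refers to another axis. On the scores kept from 6 libraries, chosen after seeing the data, r was -0.395 to 0.502, turning without control 2 (-0.395) and not without ZnO 1 (0.399). It was -0.0865 without control 2 and control 3. With the first component it was -0.814 to -0.701 recomputed and -0.874 to -0.712 on the kept scores. The Z level difference was -0.18 to -0.09 without 1 library. In checks chosen after seeing the data, 8 to 15 of 33 genes on W had an r of 0.9 or more without 1 library. Where 1 library was left out of a fit of groups, the spread was pooled over those left.

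The labels do not say whether replicate numbers pair libraries of the 2 groups. Deviations from the group means correlated at -0.03, -0.37 and 0.41 for numbers 1, 2 and 3. Only 1 of 6 libraries correlated best with its own number. With 3 libraries per group, these values cannot decide whether the numbers pair libraries. With the replicate number as a block, 0 genes were called, and the log2 fold changes of HINTW and ATP5F1AW were 0.24 and 0.44 (limma adjusted p = 0.996 for both). No replicate error exists within a library, so intervals from reads give counting error alone.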

Other observations

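Several short or unnamed genes stood among the 10 with the lowest p for the W level, none past the threshold. An unmatched gene, listed only by the ID 112530494, was at 58.7, 25.5 and 101 FPKM in control libraries and 58.1, 84.1 and 57.0 FPKM in treated libraries (r = 0.960, slope 1.11 ± 0.17 SE, limma adjusted p = 0.266), lowest in control 2 and highest in control 3. MIR1452, a miRNA gene placed on Z, ran the other way, at 18.6, 37.4 and 11.1 FPKM in control libraries and 30.6, 15.8 and 21.6 FPKM in treated libraries (r = -0.902, adjusted p = 0.179). The gene with ID 395636, also unmatched, was at 3.11, 6.96 and 1.67 FPKM in control libraries and 5.71, 2.38 and 2.56 FPKM in treated libraries (r = -0.933, adjusted p = 0.266). The snoRNA gene LOC112530792, placed on Z like MIR1452, instead went with the W level (r = 0.809, slope 1.795 ± 0.246 SE, limma adjusted p = 0.221). It was at 0 to 5.93 FPKM. MIR32 was at 0 to 6.84 FPKM, and the snoRNA gene LOC112530966 at 1.38 to 8.997 FPKM.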
